A study of Mus musculus with 64 samples.

Results

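Gene expression in the prefrontal cortex (PFC) was compared between mice killed 3 h after a single injection of psilocybin and mice killed 3 h after saline. The 16 libraries were selected by their labels alone and are part of the 64 libraries of the series, which also covers the hypothalamus and a harvest at 4 weeks. All 32 mice of the study were male C57BL/6J, an inbred laboratory strain, were aged 10 weeks, ate chow and lived in groups. Every mouse had been sham-injected with saline in the days before treatment. In the psilocybin group 8 mice received 3 mg/kg psilocybin intraperitoneally, and in the vehicle group 8 mice received isotonic saline by the same route. The mice carried no transgene, each library came from 1 mouse, and replicates 1 to 8 shared their numbers with the cage label. RNA of replicates 1 to 4 was extracted in pool C and RNA of replicates 5 to 8 in pool D, and this pool was a covariate unless another fit is named. The tissue is labelled frontal cortex and was measured whole, so a level is an average over all neurons, glia and vessels of the dissected piece.

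Psilocybin is dephosphorylated in the body to psilocin, an agonist of several serotonin receptors that is best known for activating the 5-HT2A receptor. That receptor couples to phospholipase C and is abundant on the deep-layer pyramidal neurons of the frontal cortex. How such a neuron responds further depends on its other receptors, on the ion channels that set its excitability and on the proteins of its synapses, while astrocytes, myelinating oligodendrocytes and microglia clear transmitter, insulate axons and survey the tissue. Messenger RNA for these proteins was therefore read as 24 families with 696 members, of which 678 had enough reads to be tested. The question was which of these families differed between psilocybin and vehicle at 3 h, beyond the genes that the study itself discussed.

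Between 9473354 and 29362001 reads per library were counted to genes. Genes of excitatory and inhibitory neurons were read at high levels in all 16 libraries. The vesicular glutamate transporter gene Slc17a7 measured 1062, 1207 and 1543 counts per 1000000 counted reads (CPM) after psilocybin and 1069, 1400.4 and 1575 CPM after vehicle, each time as the lowest, median and highest of 8 libraries. For Gad1, which makes the inhibitory transmitter GABA, the same order gave 336, 383 and 410.5 CPM and 353, 385 and 405 CPM. Psilocybin replicate 7 stood apart from the other libraries in base composition. Its expression rose with the GC content of the genes by 0.54 on the log2 scale per 10 percentage points, while the other psilocybin libraries lay between -0.24 and -0.00482 and the vehicle libraries between -0.22 and 0.32. Mitochondrially encoded transcripts, which are poor in GC, took 3.60% of its reads, 6.07 to 9.63% of the reads of the other psilocybin libraries and 3.93 to 8.19% of those of vehicle. For this reason each count was obtained with this library kept and with it left out.

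**Figure D1:**
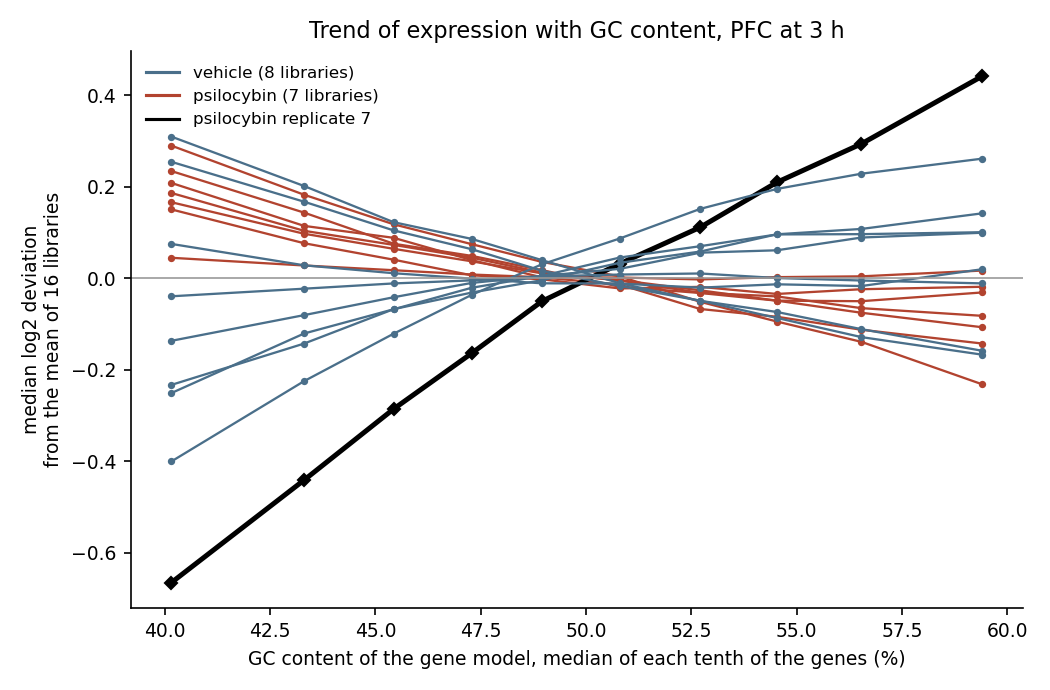
Median log2 deviation of each PFC library at 3 h from the mean of the 16 libraries (vertical axis) for genes in 10 bins of GC content (horizontal axis, median GC in percent), 1 line per library. Psilocybin replicate 7 (black) climbs across the bins with a slope of 0.54 per 10 points, whereas the other psilocybin libraries (red) slope between -0.24 and -0.00482 and the vehicle libraries (blue) between -0.22 and 0.32.

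A second group of libraries differed in a set of striatal genes. The summed level of 20 genes typical of striatal projection neurons was 1378 CPM in psilocybin replicate 4, 1784 CPM in psilocybin replicate 6 and 1605 CPM in vehicle replicate 6, against 727 to 862 CPM in the other 13 libraries. The dopamine receptor gene Drd2, a marker of 1 class of striatal projection neurons, measured 15.9, 23.96 and 21.3 CPM in these 3 libraries and between 0.614 and 1.77 CPM elsewhere. The same 3 libraries had the highest summed levels of myelin genes, at 8760, 7980 and 10260 CPM. Counts of glial, myelin and dopamine receptor genes are therefore also given without these libraries.

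Across all 18971 genes tested, 1 was higher and 1 was lower after psilocybin at an adjusted p under 0.05 (edgeR quasi-likelihood test, Benjamini-Hochberg adjustment), together 0.0105% of the genes. The lower gene, Hrh1, belongs to the receptor families and the higher gene, Zcchc10, to none of them. Hence 1 of the 678 family members was called lower, where 0.00527% of all genes were, and none was called higher. At an unadjusted p under 0.05, 23 members (3.39%) were higher and 29 members (4.28%) were lower, close to the 3.63% and 3.59% of all tested genes. Leaving out psilocybin replicate 7 raised the calls among all genes to 9 of 18984 (0.0474%), 7 higher and 2 lower, while Hrh1 remained the only family member called. Without that library 52 members (7.67%) were higher and 58 members (8.55%) lower at an unadjusted p under 0.05, against 8.09% and 6.08% of all genes.

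Members that were higher and members that were lower differed in base composition. With all libraries, the members higher at an unadjusted p under 0.05 had a median GC content of 42.2% and those lower of 54.0%, with 51.7% over all members tested. Leaving out replicate 7 did not remove the gap, at 41.7% and 55.9%, and the remaining psilocybin libraries sloped downward with GC. When a smooth trend with GC content and gene length was removed from each library and replicate 7 was left out, 31 members were higher and 28 were lower, at median GC contents of 48.6% and 52.9%. All genes then stood at 4.14% higher and 4.47% lower, and the members at 4.57% and 4.13%. Values with this trend removed are given with the families and genes described in most detail.

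A model of the form the study used, limma's voom with a quality weight per library, called many more genes. The libraries fitted here include a sample that the study dropped, so the calls and their balance of directions are those of this fit and not the study's own. It gave psilocybin replicate 7 the lowest weight of the 16 libraries, 0.12, and called 983 genes higher (5.18% of all genes) and 263 lower (1.39%). Of the 678 family members tested it called 30 higher and 10 lower. When blocks by shared cage number replaced the pool and animal terms, weighted voom called 125 genes higher (0.659%) and 19 lower (0.1%), among them 8 higher and 2 lower members. Without the block the higher voom calls had a median GC content of 42.3% and the lower ones of 55.1%, where all genes had 49.8%. Among family members these medians were 40.6% and 54.0%. Quality weights averaged 1.05 in the psilocybin libraries and 0.65 in vehicle. No voom fit was run with the GC trend removed. Calls of this model are named below as voom calls, and all other statements rest on edgeR.

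**Figure D2:**
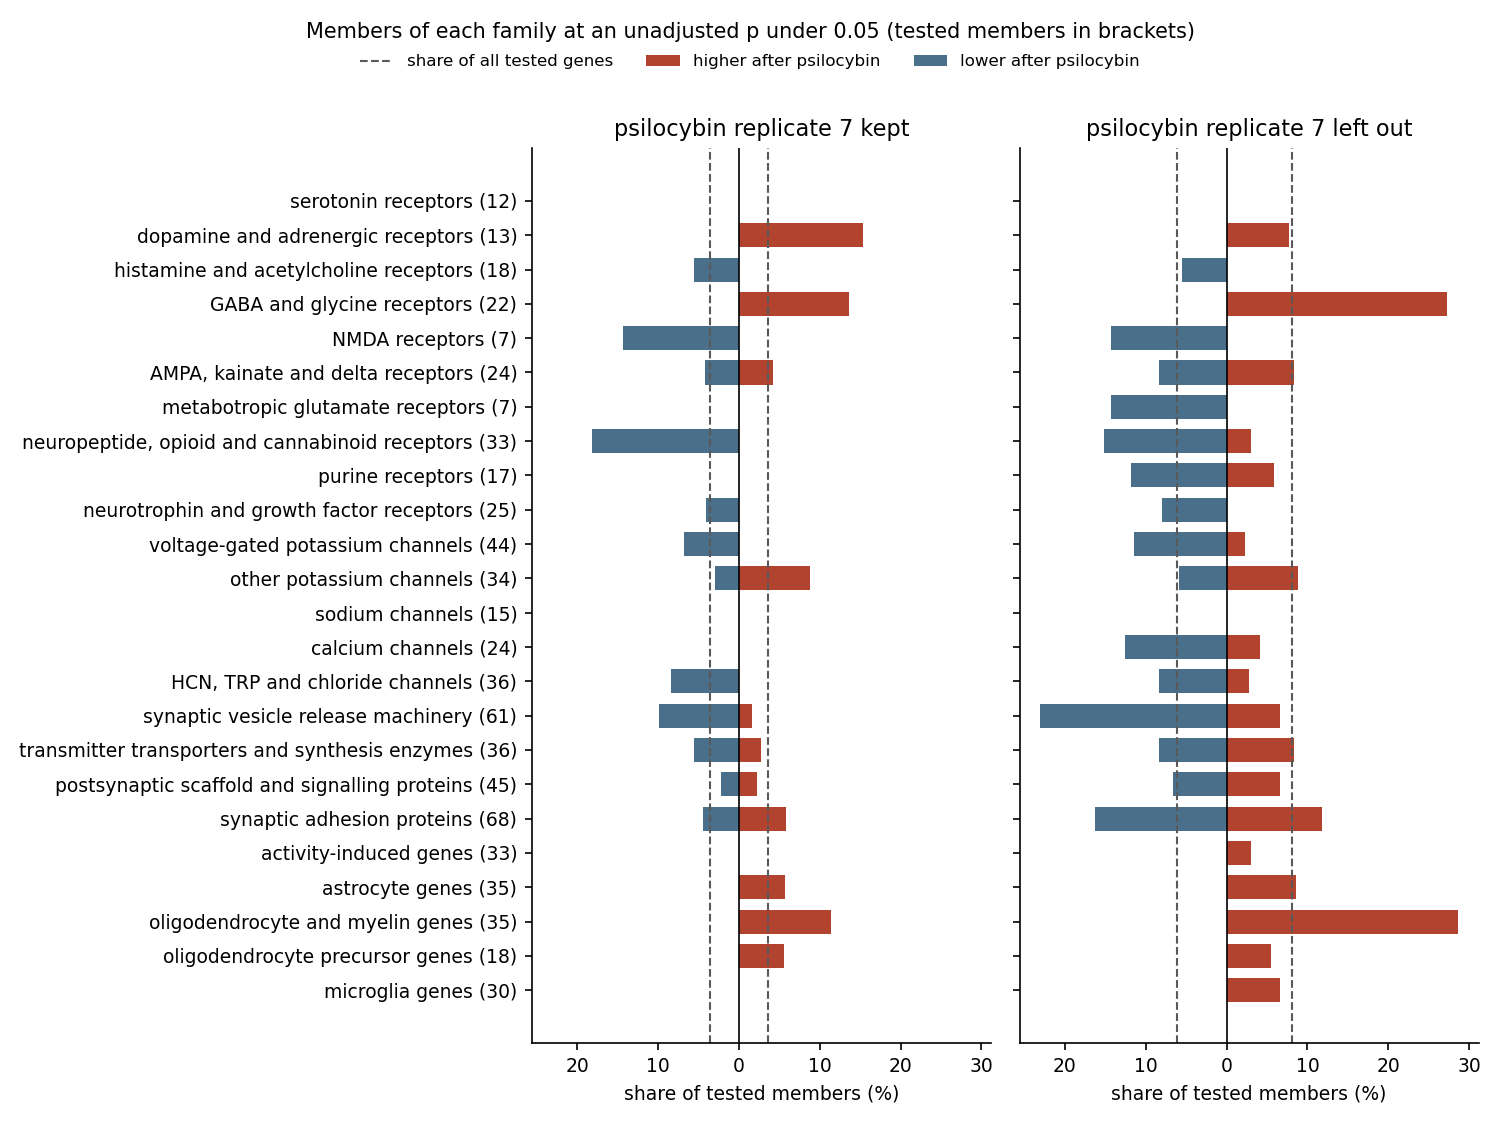
Share of the tested members of each family (percent, horizontal axis) that were higher (red, to the right) or lower (blue, to the left) after psilocybin at an unadjusted p under 0.05, with psilocybin replicate 7 kept (left panel) or left out (right panel). Dashed lines give the share of all tested genes, which is 3.63% higher and 3.59% lower with the library kept and 8.09% and 6.08% without it, and the number of tested members is in brackets.

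Hrh1 encodes the histamine H1 receptor, which couples to phospholipase C as the 5-HT2A receptor does and mediates the arousing effect of histamine. The gene (ENSMUSG00000053004.9) lies on chromosome 6 from 114397936 to 114482404 on the plus strand (GRCm38). Psilocybin replicates 1 to 8 measured 26.6, 20.8, 24.9, 18.6, 20.4, 18.3, 16.4 and 22.4 CPM. Vehicle replicates 1 to 8 measured 25.6, 35.2, 30.9, 37.8, 23.99, 22.9, 30.2 and 31.5 CPM. Every psilocybin library was below the vehicle median, and the groups overlapped only at the upper end of psilocybin and the lower end of vehicle. Hrh1 fell from 29.8 ± 5.303 to 21.1 ± 3.42 CPM (mean ± SD, n = 8 each), a log2 fold change of -0.49 with a standard error (SE) of 0.0758 and an edgeR adjusted p of 0.000353. Without psilocybin replicate 7 the log2 fold change was -0.46 (edgeR adjusted p = 0.00266), and with the GC trend removed as well it was -0.42 (edgeR adjusted p = 0.00892). It was -0.51 within pool C and -0.40 within pool D without replicate 7. The gene was called in each of the 16 fits that left out 1 library, all of which drew their spread from every group of the series. The call ended when the spread was taken from fewer libraries, with an edgeR adjusted p of 0.0714 from the PFC libraries alone and 0.981 from the 16 libraries alone, at log2 fold changes of -0.48 and -0.49. Neither pool alone passed, with an edgeR adjusted p of 0.686 in pool C and 1 in pool D. Without the 3 libraries high in striatal genes, where it was the only gene called (0.00521% of all genes), it was -0.47 (edgeR adjusted p = 0.00553), and with replicate 7 left out as well -0.42 (edgeR adjusted p = 0.0671). In this whole-tissue measurement a loss of cells that express a gene and a loss of its RNA per cell cannot be told apart.

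Zcchc10 encodes a small protein with a zinc knuckle of the CCHC type. The gene (ENSMUSG00000018239.9) lies on chromosome 11 from 53324679 to 53332479 on the plus strand (GRCm38). Psilocybin replicates 1 to 8 stood at 11.6, 11.2, 8.99, 9.77, 8.03, 9.96, 7.91 and 8.81 CPM. Vehicle replicates 1 to 8 stood at 5.73, 4.38, 6.99, 6.56, 7.44, 7.98, 6.07 and 6.62 CPM. The lowest psilocybin library, replicate 7, was just under the highest vehicle library, and without it the groups did not overlap, as held for 6 genes (0.0316%) in that direction. Zcchc10 rose by 0.56 on the log2 scale (SE 0.112, edgeR adjusted p = 0.0456). This call too ended when only the PFC libraries (edgeR adjusted p = 0.373) or only the 16 libraries (edgeR adjusted p = 0.981) were fitted, and within either pool. It held in 6 of the 16 fits that left out 1 library, and with the GC trend removed and replicate 7 left out the log2 fold change was 0.43 (edgeR adjusted p = 0.129). Without the 3 libraries high in striatal genes it was 0.59 (edgeR adjusted p = 0.114).

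The start regions of both called genes are printed because they are the sequences upstream of the only genes that passed the test with all libraries. Each window runs from 250 bases before to 50 bases after a RefSeq transcription start (GRCm38.p6) and is read along the plus strand. Capitals mark GC boxes, the letters GGGCGG or their reverse complement CCGCCC. The Hrh1 window lies at chr6:114397686-114397985 and has a GC content of 71.7%, and it is the window of 1 of 4 starts listed for the gene. The Zcchc10 window lies at chr11:53324439-53324738 and has a GC content of 49.7%.
Hrh1: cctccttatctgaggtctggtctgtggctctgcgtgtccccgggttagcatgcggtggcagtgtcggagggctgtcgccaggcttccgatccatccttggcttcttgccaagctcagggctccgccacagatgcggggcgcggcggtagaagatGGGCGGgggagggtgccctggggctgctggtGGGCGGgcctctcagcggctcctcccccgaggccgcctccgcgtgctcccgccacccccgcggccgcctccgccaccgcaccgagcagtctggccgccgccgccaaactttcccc
Zcchc10: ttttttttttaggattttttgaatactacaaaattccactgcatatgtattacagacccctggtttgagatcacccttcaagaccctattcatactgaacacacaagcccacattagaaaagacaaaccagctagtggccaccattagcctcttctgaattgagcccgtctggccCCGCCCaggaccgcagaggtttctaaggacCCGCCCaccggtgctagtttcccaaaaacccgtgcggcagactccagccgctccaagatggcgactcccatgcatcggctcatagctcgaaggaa
Both windows hold 2 GC boxes, a motif present in 35.7% of the 32851 windows of this length. Neither window holds the letters TGACG or CGTCA, the half-site of the cAMP response element, which are in 20.8% of the windows. These are counts of letters and do not tell whether a factor binds.

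Without psilocybin replicate 7, edgeR called 7 further genes that are not in the family lists. Of these, Nmbr is a neuropeptide receptor and Lrrtm4 a synaptic adhesion protein, so the statement that Hrh1 was the only member called holds for the lists as drawn up and not for every gene of these kinds. Nmbr, the receptor for neuromedin B, measured 2.94, 1.39, 1.43, 6.25, 0.878, 5.45, 0.273 and 4.94 CPM in psilocybin replicates 1 to 8 and between 0.322 and 1.19 CPM in vehicle. Abi3bp, a protein of the extracellular matrix, measured 11.7, 9.93, 8.94, 39.5, 8.86, 32.6, 9.55 and 33.7 CPM in the psilocybin replicates and 4.71 to 11.5 CPM in vehicle. Ndst4, an enzyme that modifies heparan sulphate, measured 6.53, 1.85, 1.83, 16.03, 3.68, 18.04, 1.02 and 24.6 CPM in the psilocybin replicates and 1.14 to 3.08 CPM in vehicle. All 3 genes were highest in psilocybin replicates 4, 6 and 8, and 2 of these libraries were also high in striatal genes. Above the highest vehicle library stood 6 psilocybin libraries for Nmbr, 4 for Abi3bp and 5 for Ndst4. Without the 3 libraries high in striatal genes and replicate 7 edgeR called no gene (0%), with a log2 fold change of 1.46 for Nmbr, 0.91 for Abi3bp and 1.61 for Ndst4. The part of the dissected piece in these values was not tested.

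The other genes called without replicate 7 were more evenly spread over the mice. Plpp6, a lipid phosphatase, ranged from 65.6 to 76.4 CPM in the 7 psilocybin libraries and from 45.9 to 64.8 CPM in vehicle, without overlap, whereas replicate 7 stood at 41.9 CPM. Lrrtm4, a postsynaptic adhesion protein, measured 9.14, 21.7 and 28.4 CPM after psilocybin and 11.6, 15.9 and 24.1 CPM after vehicle, its lowest psilocybin value being that of replicate 7. Coq10b, which takes part in coenzyme Q handling in mitochondria, stood at 8.52 CPM in replicate 7 and at 27.7 to 38.7 CPM in the other psilocybin libraries, next to 15.8 to 31.8 CPM in vehicle. Cyb561a3, a membrane electron carrier, was lower, at 8.89, 9.96 and 13.02 CPM against 10.8, 13.01 and 13.9 CPM, and reads of overlapping genes on the other strand could contribute to it. Adding the cage number as a block ended the calls of Abi3bp (edgeR adjusted p = 0.0887) and Lrrtm4 (edgeR adjusted p = 0.0644). With the GC trend removed, Hrh1, Nmbr and Abi3bp were called (0.0158% of all genes).

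**Figure D3:**
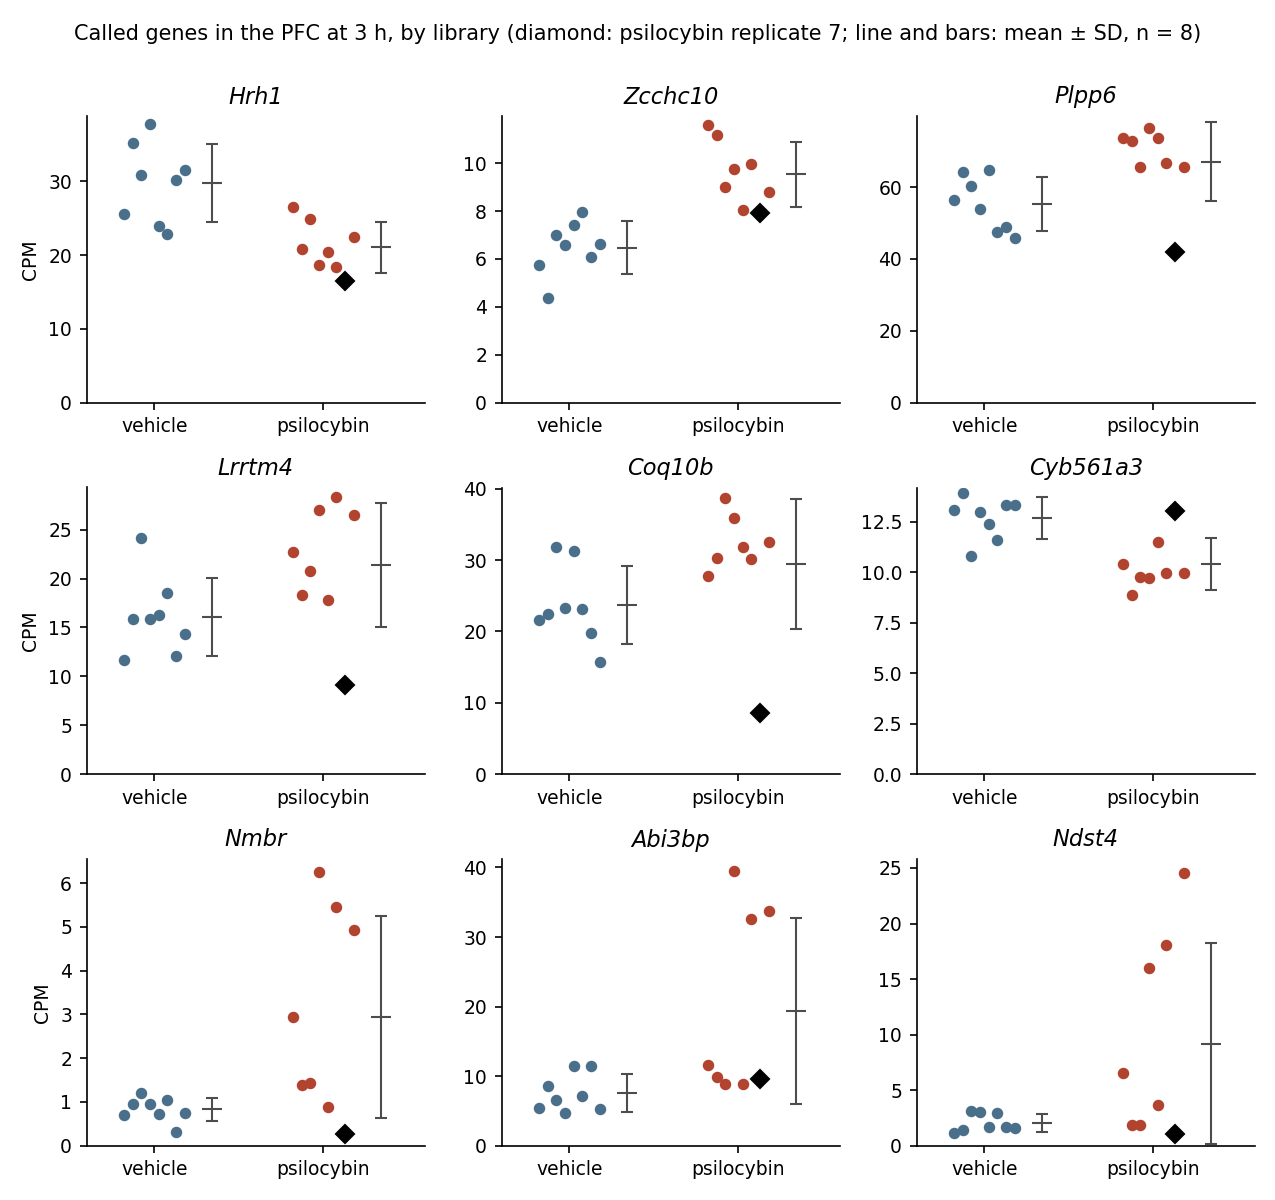
CPM per library (vertical axes) of the 9 genes called by edgeR when psilocybin replicate 7 was left out, for vehicle (blue) and psilocybin (red, replicate 7 as a black diamond), with mean ± SD of 8 libraries beside the points. Hrh1 in vehicle ranges from 22.9 to 37.8 CPM and in psilocybin from 16.4 to 26.6 CPM, while Nmbr, Abi3bp and Ndst4 are highest in psilocybin replicates 4, 6 and 8.

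Serotonin receptors, the direct targets of psilocin, gave no member at an unadjusted p under 0.05 among 12 tested, with or without replicate 7, and no voom call. Too few reads kept Htr2b and Htr3b from the test. Levels per length ordered the receptors with Htr2a first, at 10.8 reads per kilobase of exon in CPM units (RPKM, mean) in vehicle and 12.3 RPKM after psilocybin. Htr3a, the ion channel among the serotonin receptors, followed at 5.09 and 4.54 RPKM, then Htr5a at 4.6 and 4.42 RPKM and Htr1a at 3.77 and 3.45 RPKM. Htr1d and Htr4 were lowest, at under 0.2 RPKM in both groups.

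Values of single serotonin receptors overlapped between the groups. For Htr2a the lowest, median and highest libraries were 37.3, 68.9 and 92.1 CPM after psilocybin and 43.96, 55.04 and 94.8 CPM after vehicle, a log2 fold change of 0.15 (SE 0.156). Htr2c, another receptor bound by psilocin, measured 4.57, 19 and 27.6 CPM and 9.82, 14.7 and 22.6 CPM, with a log2 fold change of 0.29 (SE 0.2705). The lowest psilocybin value of both genes was that of replicate 7. Htr1a, an inhibitory receptor found on the serotonin neurons themselves and on pyramidal cells, gave -0.14 (SE 0.125) on the log2 scale. Htr1b, the receptor of axon terminals, gave 0.05 (SE 0.153), and Htr7, which raises cAMP, gave 0.16 (SE 0.0903). With the GC trend removed 1 serotonin receptor, Htr1f, was lower at an unadjusted p under 0.05 (8.33% of the family, where all genes had 3.87%), and none was when replicate 7 was left out as well. These values do not show that the receptors were unchanged.

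Among the histamine and acetylcholine receptors 18 members were tested and Hrh1 was the only one at an unadjusted p under 0.05. Hrh3, the presynaptic histamine receptor that limits histamine release, measured 40.2, 47.3 and 74.3 CPM after psilocybin and 39.4, 60.4 and 79.4 CPM after vehicle, a log2 fold change of -0.15 (SE 0.147) that did not pass the test. The nicotinic subunits Chrnb2 and Chrna4, which form the main nicotinic receptor of the cortex, gave -0.14 (SE 0.0703) and -0.23 (SE 0.138). Chrnb2 overlaps Adar on the other strand. The median log2 fold change of the family was -0.04, and that of all genes was -0.01.

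Of the dopamine and adrenergic receptors 13 were tested. With psilocybin replicate 7 kept, 2 were higher (15.4%, where all genes had 3.63%) and none lower at an unadjusted p under 0.05. Adrb1 was among the higher ones. This receptor, through which noradrenaline raises cAMP in cortical neurons, measured 21.3, 25.7 and 29.3 CPM after psilocybin and 19.9, 21.4 and 25.01 CPM after vehicle (log2 fold change 0.21, SE 0.0901, edgeR adjusted p = 0.6703). The log2 fold change was 0.19 without replicate 7 and 0.27 with the GC trend removed as well. Without the 3 libraries high in striatal genes 14 members were tested, 2 of them higher (14.3%) and 1 lower (7.14%) at that p, where all genes had 3.07% and 2.95%, at a family median of -0.08.

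Receptors for neuropeptides, opioids and cannabinoids gave more lower than higher members, with 6 of 33 tested members lower (18.2%) and none higher at an unadjusted p under 0.05, against 3.59% of all genes lower. None of the 6 passed the adjusted threshold in edgeR. The list does not hold Nmbr, the neuropeptide receptor described above, which was on the higher side in the same fit (log2 fold change 1.79, SE 0.393, edgeR adjusted p = 0.0936). Ntsr1, a neurotensin receptor typical of layer 6 corticothalamic neurons, measured 3.46, 4.57 and 7.43 CPM after psilocybin and 4.71, 6.35 and 9.62 CPM after vehicle (log2 fold change -0.51, SE 0.156, edgeR adjusted p = 0.453). Crhr1, the receptor for the stress hormone CRH, measured 15.6, 20.04 and 29.4 CPM and 19.03, 26.1 and 35.2 CPM (log2 fold change -0.31, SE 0.108, edgeR adjusted p = 0.531), and was the only member of this family with a voom call (voom adjusted p = 0.0493). The block ended that voom call. Hcrtr1, an orexin receptor, was low throughout, at 0, 1.64 and 3.92 CPM and 0.699, 2.48 and 4.06 CPM. The remaining 3 were the opioid receptor Oprd1 at -0.33 (SE 0.167), the nociceptin receptor Oprl1 at -0.19 (SE 0.0883) and the PACAP receptor Adcyap1r1 at -0.15 (SE 0.0673), named here after their values were seen. With replicate 7 left out 5 members were lower (15.2%, where all genes had 6.08%) and 1 was higher, at a family median of 0.10, and with the GC trend removed as well the log2 fold changes of Ntsr1 and Crhr1 were -0.45 and -0.28. The median of the whole family was 0.00 with all libraries, so the other members did not share this direction.

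Receptors for purines and for growth factors differed little. No purine receptor of 17 was at an unadjusted p under 0.05. The adenosine receptor Adora1, which dampens transmitter release, measured 158, 189 and 235 CPM after psilocybin and 166, 217 and 226 CPM after vehicle (log2 fold change -0.12, SE 0.0665). Of 25 receptors for neurotrophins, ephrins and other growth factors, Ephb2 alone was lower at that p, where all genes had 3.59%. Ephb2 is a receptor tyrosine kinase that gathers NMDA receptors at synapses. It measured 13.1, 21.2 and 28.97 CPM against 21.5, 25.8 and 31.3 CPM (log2 fold change -0.27, SE 0.0949, edgeR adjusted p = 0.554), and no vehicle library lay under 21.5 CPM while the psilocybin libraries reached down to 13.1 CPM.

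GABA and glycine receptors are the ligand-gated chloride channels of inhibition together with the metabotropic GABA receptors. By count they held the largest group of higher receptor genes in the fit with all libraries and no GC trend removed. With all libraries 3 of 22 were higher (13.6%) and none lower at an unadjusted p under 0.05, and without replicate 7 there were 6 higher (27.3%) beside 8.09% of all genes. Glrb, the subunit that anchors glycine receptors at synapses, measured 130.0, 308 and 349.7 CPM after psilocybin and 171, 217 and 329.9 CPM after vehicle. Replicate 7 gave the lowest of these values, and the next psilocybin library stood at 277 CPM. The log2 fold change of Glrb was 0.29 (SE 0.135, edgeR adjusted p = 0.681) with all libraries and 0.40 (edgeR adjusted p = 0.158) without replicate 7.

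The voom model called 5 of the 22 members higher, where it called 5.18% of all genes higher. With the block it called 2, where it called 0.659% of all genes higher. Among the 5 were Glrb (voom adjusted p = 0.00776), which held with the block, and Gabrg1 and Glra3, which did not. These genes are poor in GC, and the family as a whole has a median GC content of 43.9% where all genes have 49.8%. With the GC trend removed and replicate 7 left out, the log2 fold change was 0.26 for Glrb, but -0.03 for Gabrg1. The family median was 0.09 without replicate 7 and -0.00469 after the GC trend was removed, which is close to 0.

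Glutamate receptors showed single members in both directions. Of 7 NMDA receptor subunits Grin3a, which lowers the calcium flux of the receptor, was lower at an unadjusted p under 0.05, with 43.1, 46.2 and 55.4 CPM after psilocybin and 48.9, 53.4 and 57.4 CPM after vehicle (log2 fold change -0.17, SE 0.0688, edgeR adjusted p = 0.641). Its value was -0.19 with the GC trend removed and replicate 7 left out. Among 24 AMPA, kainate and delta receptor genes with their auxiliary subunits, Grik3, a kainate receptor subunit, measured 41.4, 72.5 and 109 CPM against 59.3, 86.9 and 157 CPM (log2 fold change -0.40, SE 0.162) and Cacng7, an AMPA receptor auxiliary subunit, 152, 173 and 216 CPM against 130.2, 152 and 191 CPM (log2 fold change 0.16, SE 0.0658). Neto2, a kainate receptor partner, stood at 35.2 CPM in replicate 7 and at 75.5 to 101 CPM in the other psilocybin libraries. It was called higher by voom with and without the block, and its log2 fold change of 0.34 without replicate 7 became 0.09 when the GC trend was removed. Metabotropic glutamate receptors gave none of 7 with all libraries, and Grm2, a presynaptic brake on glutamate release that can form complexes with the 5-HT2A receptor, measured 31.6, 41.7 and 62.7 CPM against 35.7, 53.6 and 77.4 CPM (log2 fold change -0.28, SE 0.146).

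**Figure D4:**
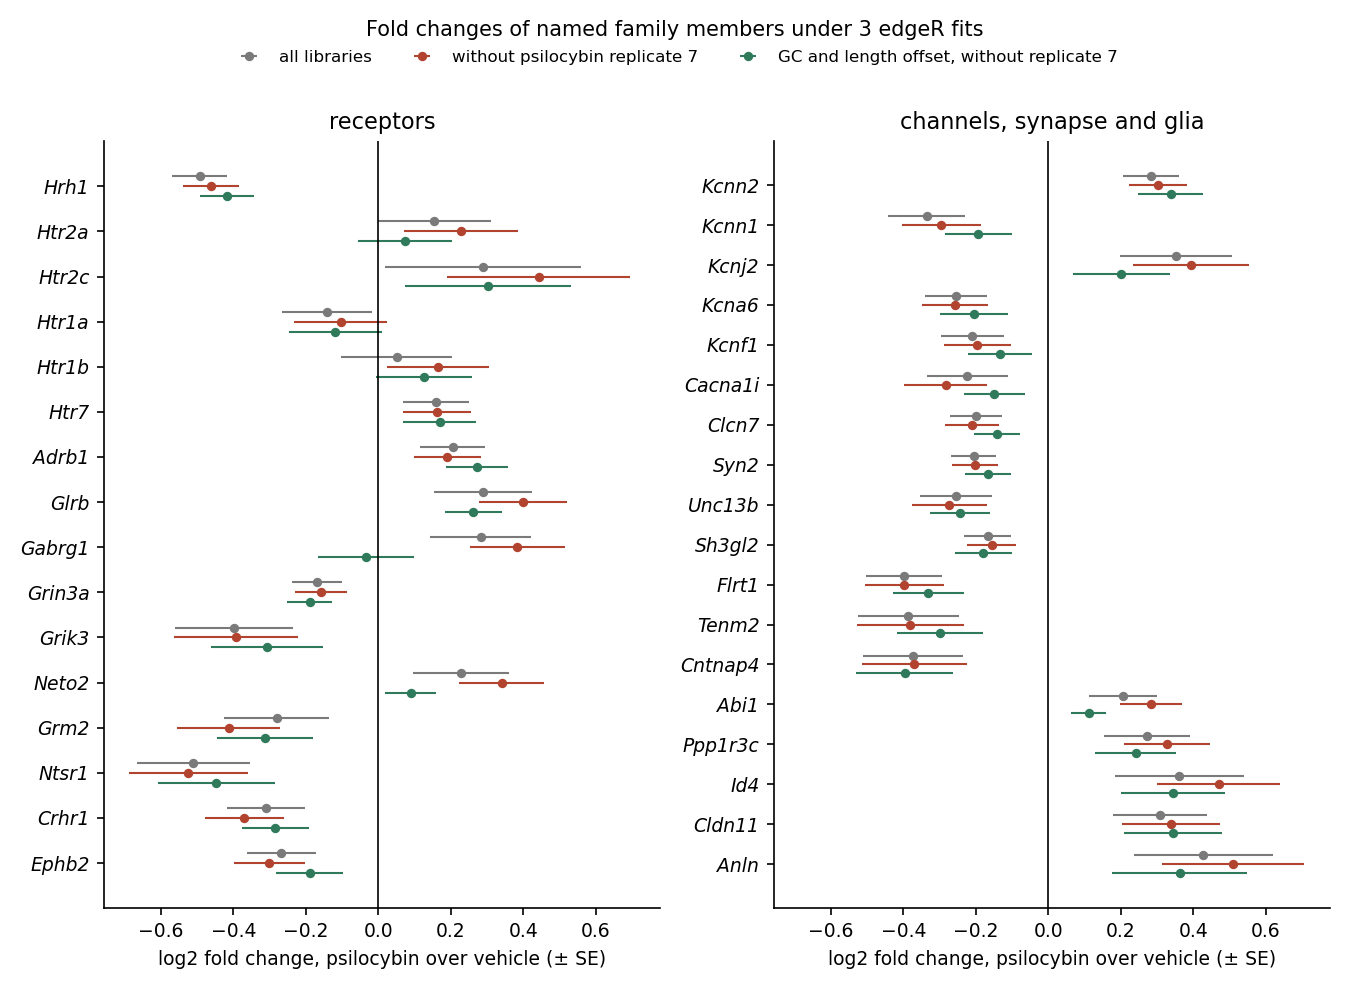
Log2 fold change ± SE of psilocybin over vehicle (horizontal axes) for named receptor genes (left panel) and for named channel, synaptic and glial genes (right panel) under 3 edgeR fits, with all libraries (grey), without psilocybin replicate 7 (red) and with the GC and length trend removed as well (green). Hrh1 keeps values between -0.49 and -0.42, whereas Gabrg1 moves from 0.38 without replicate 7 to -0.03 once the GC trend is removed.

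Ion channels were tested as 153 genes, of which 3 were higher (1.96%) and 7 lower (4.58%) at an unadjusted p under 0.05, with 3.63% and 3.59% of all genes. Without replicate 7 there were 6 higher (3.92%) and 13 lower (8.5%), with 8.09% and 6.08% of all genes. Removing the GC trend as well left 5 higher and 5 lower (3.27% each), with 4.14% and 4.47% of all genes. The small-conductance calcium-activated potassium channels, which shape the pause after a burst of spikes, were split. Kcnn2 measured 33.4, 37.3 and 42.2 CPM after psilocybin and 26.98, 31.04 and 35.5 CPM after vehicle, so that the psilocybin median was above every vehicle library. Its log2 fold change was 0.28 (SE 0.0776, edgeR adjusted p = 0.276), and 0.34 with the GC trend removed and replicate 7 left out. It was a voom call (voom adjusted p = 0.0103) that held with the block. Kcnn1 was on the opposite side, with 13.3, 16.3 and 21.5 CPM against 17.01, 21.5 and 24.4 CPM (log2 fold change -0.33, SE 0.106, edgeR adjusted p = 0.456), and it was not called by voom. Both genes overlap transcripts on the other strand.

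Of the other channels, the inward rectifier Kcnj2, which holds the resting potential, measured 25.7, 32.6 and 47.4 CPM against 19.6, 26.6 and 35.9 CPM (log2 fold change 0.35, SE 0.155). Voltage-gated potassium channels gave 3 lower members of 44 at an unadjusted p under 0.05 with all libraries, where all genes had 3.59%. They were Kcna6, a delayed rectifier of axons, the silent subunit Kcnf1 and the channel-interacting protein Kcnip3. Kcna6 measured 65.7, 82.4 and 121 CPM after psilocybin and 80.6, 101 and 128 CPM after vehicle (log2 fold change -0.25, SE 0.0864, edgeR adjusted p = 0.5095). Its log2 fold change was -0.09 in pool C and -0.44 in pool D without replicate 7, and this difference between pools was not tested. Kcnf1 gave -0.21 (SE 0.0877) and Kcnip3 -0.16 (SE 0.0732). Both lysosomal chloride transporters listed here were lower at an unadjusted p under 0.05, Clcn7 at -0.20 (SE 0.0707) and Clcn6 at -0.14 (SE 0.0671).

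Sodium channels, which carry the upstroke of the action potential, gave no member of 15 at an unadjusted p under 0.05, with or without replicate 7. The 24 calcium channel genes likewise gave none with all libraries, although 18 of them had a negative log2 fold change and the median was -0.08. The T-type channels Cacna1i and Cacna1g, which open near rest and support burst firing, measured 87.8, 101 and 138 CPM against 80.5, 126 and 163 CPM and 57.6, 69.1 and 105 CPM against 67.1, 93.7 and 134 CPM. Their log2 fold changes were -0.22 (SE 0.112) and -0.26 (SE 0.146). With the GC trend removed and replicate 7 left out the family median was -0.02.

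Synaptic vesicle release genes, which dock, prime, fuse and recycle vesicles, had 6 lower and 1 higher member of 61 at an unadjusted p under 0.05 with all libraries (9.84% and 1.64%), next to 3.59% and 3.63% of all genes. Negative log2 fold changes were found in 48 of the 61, with a median of -0.06. Syn2, which tethers vesicles to the reserve pool, measured 443, 509 and 551 CPM after psilocybin and 429.8, 594 and 667 CPM after vehicle (log2 fold change -0.21, SE 0.0619, edgeR adjusted p = 0.453). Unc13b, a priming factor, measured 62.6, 71.6 and 84.01 CPM against 64.2, 84.95 and 121 CPM (log2 fold change -0.25, SE 0.0994, edgeR adjusted p = 0.622). Sh3gl2, an endophilin that works in vesicle recycling, measured 286, 347 and 383 CPM against 286, 380.2 and 447 CPM (log2 fold change -0.17, SE 0.0659). For each of the 3 genes the psilocybin median was under the vehicle median, and the ranges of the groups overlapped widely. Without replicate 7 the family had 14 lower members (23%, where all genes had 6.08%), among them Stx1a, Syn1, Syp, Sv2a, Bsn and Dnm1, which are core parts of the terminal and were named after their values were seen. Removing the GC trend as well left 5 lower (8.2%, where all genes had 4.47%) and none higher, with Syn2 at -0.17, Unc13b at -0.24 and Sh3gl2 at -0.18. The family median was -0.06 then too, and it was negative within pool C, at -0.03, and within pool D without replicate 7, at -0.13.

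The higher vesicle gene was Snap25, a SNARE protein of the fusion complex, with 2117, 3718 and 4391 CPM after psilocybin and 2502, 3031 and 4167 CPM after vehicle. Its log2 fold change was 0.21 (SE 0.101), and voom called it higher. With the GC trend removed and replicate 7 left out it was 0.13.

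Transporters and enzymes of transmitter synthesis gave 1 higher and 2 lower members of 36 at an unadjusted p under 0.05. All genes had 3.63% higher and 3.59% lower. Slc18a2, the vesicular monoamine transporter, was low in this tissue, at 2.59, 6.31 and 9.23 CPM after psilocybin and 1.504, 4.15 and 7.96 CPM after vehicle (log2 fold change 0.61, SE 0.259, edgeR adjusted p = 0.647). The amino acid transporter Slc1a4 measured 80.4, 86.8 and 95.7 CPM against 84.9, 94.99 and 111 CPM (log2 fold change -0.15, SE 0.0602). The proline transporter Slc6a7 measured 37.4, 54.4 and 76.6 CPM against 42.8, 60.6 and 93.7 CPM (log2 fold change -0.26, SE 0.112). The genes of glutamate and GABA release differed by less than their errors, with -0.12 (SE 0.276) for Slc17a7 and 0.02 (SE 0.0954) for Gad1 on the log2 scale. These errors draw on the hypothalamus libraries as well. Too few reads were counted for the serotonin and noradrenaline transporters Slc6a4 and Slc6a2, which are made in the cell bodies of the brainstem.

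Postsynaptic scaffold and signalling proteins gave 1 higher and 1 lower of 45 at an unadjusted p under 0.05. Both shares were below the 3.63% and 3.59% of all genes. Abi1, part of the complex that drives actin branching in spines, measured 85.8, 148 and 153 CPM after psilocybin and 101, 112 and 153 CPM after vehicle, with replicate 7 as the lowest and the other psilocybin libraries at 139 CPM or above. Its log2 fold change was 0.21 (SE 0.0941, edgeR adjusted p = 0.6703), voom called it higher with and without the block, and with the GC trend removed and replicate 7 left out it was 0.11. Grip2, an AMPA receptor scaffold, was on the lower side, with 15.8, 19 and 34.6 CPM against 21.3, 26.5 and 34.6 CPM (log2 fold change -0.28, SE 0.138).

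Synaptic adhesion proteins, which align the presynaptic and postsynaptic membranes, gave 4 higher and 3 lower of 68 with all libraries (5.88% and 4.41%), near the 3.63% and 3.59% of all genes. Without replicate 7 there were 8 higher and 11 lower (11.8% and 16.2%), next to 8.09% and 6.08% of all genes. Flrt1, a leucine-rich repeat protein that binds latrophilins and Unc5 receptors, measured 24.5, 29.9 and 38.7 CPM after psilocybin and 31.8, 39.7 and 51.4 CPM after vehicle. The psilocybin median was below every vehicle library. Its log2 fold change was -0.40 (SE 0.105, edgeR adjusted p = 0.271), it was a voom call with and without the block, and it was -0.33 with the GC trend removed and replicate 7 left out. Flrt1 lies within Macrod1 on the other strand. Tenm2, a teneurin and another latrophilin ligand, measured 40.8, 53.4 and 61.3 CPM against 50.1, 71.9 and 85.3 CPM (log2 fold change -0.39, SE 0.14, edgeR adjusted p = 0.557). Cntnap4, a neurexin-like protein of interneuron terminals, measured 13.7, 18.9 and 21.4 CPM against 16.2, 19.3 and 39.8 CPM (log2 fold change -0.37, SE 0.138).

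The 4 higher adhesion genes were Slitrk2, Slitrk4, Il1rapl1 and Cadm2, which promote synapse formation from either side of the cleft and were named after their values were seen. Slitrk4 gave 0.39 (SE 0.176), Cadm2 0.38 (SE 0.187), Il1rapl1 0.33 (SE 0.154) and Slitrk2 0.28 (SE 0.118) on the log2 scale. All 4 were voom calls, and all except Slitrk2 held with the block. After the GC trend was removed and replicate 7 left out they stood at 0.22, 0.39, 0.17 and 0.12.

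Activity-induced genes, which neurons switch on within minutes to hours of strong firing, gave no member of 33 at an unadjusted p under 0.05 with all libraries. The immediate early genes varied widely between mice of the same group. Fos measured 6.34, 17.9 and 28.7 CPM after psilocybin and 10.6, 19.8 and 30.6 CPM after vehicle (log2 fold change -0.22, SE 0.349). For Arc the values were 46.2, 206 and 322 CPM and 43.8, 201 and 442 CPM (log2 fold change -0.24, SE 0.3604). Egr1 gave -0.07 (SE 0.206), Npas4 -0.09 (SE 0.192) and Nr4a1 -0.17 (SE 0.193). The nuclear receptor gene Nr4a2 measured 7.84, 18.7 and 29.7 CPM against 10.7, 12.4 and 19.7 CPM (log2 fold change 0.57, SE 0.313), and without replicate 7, its lowest psilocybin library, 0.72 (edgeR adjusted p = 0.258). With these errors a small change in Fos or Arc at 3 h was not detectable.

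Of the 116 glial genes 7 were higher (6.03%, beside 3.63% of all genes) and none lower at an unadjusted p under 0.05, and without replicate 7 there were 16 higher (13.8%, beside 8.09%) and none lower. Without the 3 libraries high in striatal genes 4 were higher (3.45%), near the 3.07% of all genes, and none lower, and with replicate 7 left out as well 14 were higher (12.1%, beside 6.96%) and none lower. Most of these were oligodendrocyte and myelin genes, of which 4 of 35 were higher with all libraries (11.4%) and 10 without replicate 7 (28.6%), against the same 3.63% and 8.09% of all genes. Positive log2 fold changes were found in 32 of the 35, with a median of 0.14. Mbp, a main protein of compact myelin, measured 1515, 1912 and 2614 CPM after psilocybin and 1250.4, 1658 and 3113 CPM after vehicle (log2 fold change 0.23, SE 0.142). Vehicle replicate 6 gave the highest value and belongs to the libraries high in striatal genes.

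The 3 myelin genes with the smallest p were Hapln2, Cldn11 and Anln. Hapln2, a link protein at the nodes of Ranvier, measured 7.599, 9.15 and 19.4 CPM against 4.28, 7.35 and 10.4 CPM (log2 fold change 0.50, SE 0.177, edgeR adjusted p = 0.554), with replicate 7 as the highest, and without it the log2 fold change was 0.36. Cldn11, which seals the layers of myelin, measured 89.3, 103 and 128 CPM against 54.6, 80.4 and 165 CPM (log2 fold change 0.31, SE 0.13, edgeR adjusted p = 0.641). Anln, which supports the septin scaffold of myelin, measured 15.3, 21.9 and 32.1 CPM against 9.96, 15.01 and 36.7 CPM (log2 fold change 0.43, SE 0.193). Without the 3 libraries high in striatal genes the log2 fold changes were 0.55 for Hapln2, 0.33 for Cldn11, 0.44 for Anln and 0.21 for Mbp. With the GC trend removed and replicate 7 left out 7 members were higher at an unadjusted p under 0.05 (20%, where all genes had 4.14%), at a median of 0.15. No member of this family was a call of either model.

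The myelin values were unlike in the extraction pools, and this difference between pools was not tested. In pool C the 35 genes had a median log2 fold change of 0.27 with 15 higher at an unadjusted p under 0.05, next to 4.76% of all genes. In pool D without replicate 7 the median was -0.05 with none higher, next to 1.81% of all genes. The summed level of the genes in pool C was 6140.8 to 8760 CPM in the psilocybin libraries and 4639 to 6405 CPM in vehicle. In pool D it was 5738 to 7980 CPM and 5662 to 10260 CPM. The highest pool D value was that of vehicle replicate 6, and the other vehicle libraries of this pool lay between 5662 and 6527 CPM. Leaving out vehicle replicate 6 gave 13 higher members and a median of 0.21, with 5.09% of all genes higher. Leaving out the 3 libraries high in striatal genes gave 3 higher members and a median of 0.15, with 3.07% of all genes higher. Striatal genes moved in the same direction with all libraries, at a median of 0.24 over 20 genes, 19 of them positive, and at -0.04 without the 3 libraries. The part of dissection in the myelin values was not tested.

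Astrocyte genes gave 2 higher members of 35 at an unadjusted p under 0.05 with all libraries, where all genes had 3.63%. Ppp1r3c, which targets a phosphatase to glycogen, measured 73.2, 91.8 and 116 CPM after psilocybin and 47.5, 78.7 and 102 CPM after vehicle (log2 fold change 0.27, SE 0.118, edgeR adjusted p = 0.6703). Id4, an inhibitor of differentiation factors, measured 64.3, 116 and 181 CPM against 45.9, 81.7 and 151 CPM (log2 fold change 0.36, SE 0.178, edgeR adjusted p = 0.687). Both were voom calls, and the block ended both. Gfap, the filament protein of reactive astrocytes, measured 105, 260.4 and 415 CPM and 86.8, 274 and 391 CPM, and the water channel Aqp4 158, 233 and 393 CPM and 122, 210.4 and 324 CPM. Their log2 fold changes of -0.07 (SE 0.241) and 0.11 (SE 0.179) were within their errors.

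Microglial and precursor genes gave little. Of 30 microglial genes none was at an unadjusted p under 0.05 with all libraries, and the median log2 fold change was 0.01. The median had opposite signs in the pools, -0.18 in pool C with 23 of 30 genes negative and 0.16 in pool D without replicate 7 with 29 of 30 positive. The summed level in pool D was 1563 CPM in vehicle replicate 5 and 2571 to 2872 CPM in the other vehicle libraries, with 2539 to 2762 CPM in psilocybin replicates 5, 6 and 8. The difference between pools was not tested. Cx3cr1, the fractalkine receptor of microglia, measured 55.3, 88.4 and 106 CPM after psilocybin and 65.9, 96.9 and 115 CPM after vehicle (log2 fold change -0.09, SE 0.0953). P2ry12, the receptor by which microglia sense nucleotides, gave 0.16 (SE 0.173). Of 18 oligodendrocyte precursor genes Lhfpl3 was higher at an unadjusted p under 0.05, where all genes had 3.63%. It measured 13.8, 26.5 and 32.3 CPM against 14.3, 19.1 and 32.3 CPM (log2 fold change 0.31, SE 0.143, edgeR adjusted p = 0.6703).

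**Figure D5:**
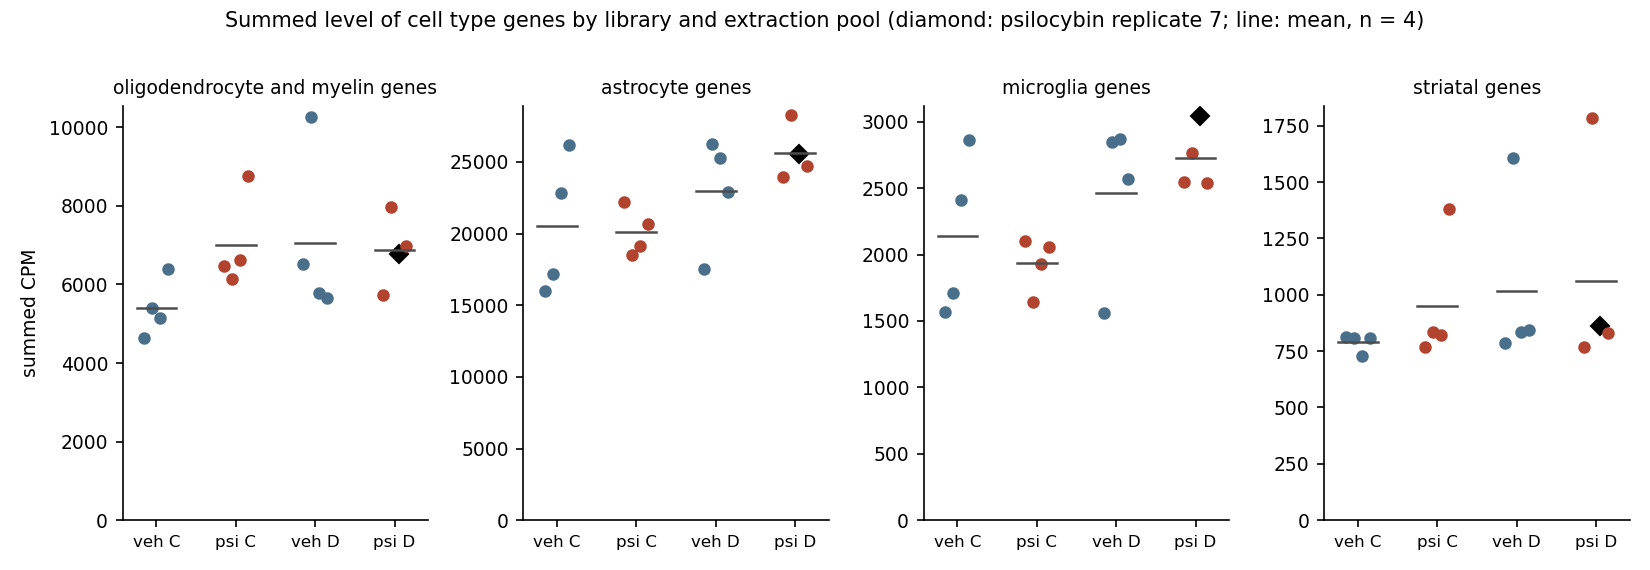
Summed CPM of oligodendrocyte and myelin, astrocyte, microglia and striatal genes per library (vertical axes) by treatment and extraction pool (veh, vehicle, psi, psilocybin, C and D, pools), with psilocybin replicate 7 as a black diamond and the mean of 4 libraries as a line. Myelin sums in pool C run from 4639 to 6405 CPM in vehicle and from 6140.8 to 8760 CPM after psilocybin, while in pool D vehicle replicate 6 reaches 10260 CPM, and 3 libraries stand at 1378 CPM or above in the striatal panel.

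Other cell types of the piece are given by their summed levels, which overlapped between the groups. Endothelial and mural genes summed to 617 to 833 CPM after psilocybin and 616 to 847 CPM after vehicle. Meningeal and choroid plexus genes summed to 1208 to 4903 CPM and 780 to 4058 CPM, and haemoglobin genes to 111 to 955 CPM and 82.6 to 511 CPM. Cortical excitatory neuron genes summed to 2868 to 3494 CPM and 2865 to 3521 CPM. Cortical interneuron genes summed to 1979 to 2119 CPM and 1789 to 2114 CPM. Mitochondrially encoded genes had positive log2 fold changes in all 8 tested members, with a median of 0.36 and 6 higher at an unadjusted p under 0.05 (75%, beside 3.63% of all genes), and with the GC trend removed and replicate 7 left out the median was 0.15.

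The response was also set against that of the same region at 4 weeks, in other mice, and of the hypothalamus of the same mice at 3 h. No gene differed in response at an adjusted p under 0.05 in edgeR in either comparison (0% each). The edgeR fit held no term for the mouse, so both regions of a mouse were treated as independent. Weighted voom with the mouse as a block called 8 genes for the difference from the hypothalamus, and 200 without psilocybin replicate 7. At an unadjusted p under 0.05 there were 585 genes (3.08%) between the 3 h and 4 week responses of the PFC and 528 genes (2.78%) between the PFC and the hypothalamus. For Hrh1 the log2 fold change was -0.09 (SE 0.0791) in the PFC at 4 weeks and -0.04 (SE 0.0778) in the hypothalamus at 3 h. The difference of the 3 h PFC response from these was -0.40 (SE 0.109, edgeR adjusted p = 1) and -0.45 (SE 0.109, edgeR adjusted p = 0.9502). For Zcchc10 the log2 fold changes there were 0.11 (SE 0.116) and 0.03 (SE 0.115). Neither difference passed, so that these data do not show either call to be particular to the PFC or to the early time.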

How the data were processed

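RNA was isolated from the PFC of 16 mice, poly-A-selected stranded libraries were sequenced in pairs, and the authors aligned reads to GRCm38 with STAR 2.7.2b and deposited a whole-number count per gene from featureCounts 1.6.2. Per the study's methods a read pair was counted if both its ends lay on 1 strand, but whether that strand had to be the gene's is not given in the sources used here, so genes with a partner on the other strand may share reads. The deposited counts were analysed with edgeR 4.0.16 in R 4.3.3 as the quasi-likelihood test with robust dispersion, TMM scaling, filterByExpr by group, group and extraction pool as terms and Benjamini-Hochberg adjustment over 18971 genes. All 62 libraries with at least 1000000 counted reads entered 1 fit, so that the spread is shared by 8 groups of the series, and 2 libraries of other groups with at most 211111 reads were left out. The study also dropped a sample for high wound healing and immune genes, which its text does not identify, and no library was dropped for that here. SE was taken as the log2 fold change divided by the root of the F statistic. It rests on the spread shared by the 8 groups of both regions and is not the spread among the 16 PFC mice alone. CPM values are TMM-scaled, and RPKM divides them by the exon length given with the counts. GC content came from the transcripts of an earlier GENCODE release on GRCm38 than the one used for counting. It was matched for 55141 of 55401 gene IDs by ID. GC and length trends were removed by a spline with 5 degrees of freedom fitted per library. Alternatives were limma 3.58.1 (voom with quality weights and the animal as a block, after the study's methods), DESeq2 1.42.0, other scaling and filters, single pools, left-out libraries and the cage number as a block.

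Members, lists and tests were chosen with earlier results of these data known. Named genes were those called in the fit with all libraries, up to 8 per direction called without psilocybin replicate 7, the 3 members of each list with the smallest p, and a fixed set of serotonin receptor, activity and cell type genes. Lists of striatal, vascular and other cell types are given as sums and counts. The left-out striatal-high libraries were chosen after seeing the data. Same-numbered mice shared a cage label, and the mean correlation of their deviations from the group means was 0.06, with cage 6 highest at 0.44 and cage 5 lowest at -0.18. Replicates came from separate mice, and none of the 56 pairs of libraries within a group agreed within counting noise. The test was also run on simulated counts in which the 16 libraries had no GC slope, striatal difference or outlying library. That run therefore tells nothing about those features. Some genes are not reported here by name.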

Additional observations from a re-analysis of the deposited data

Results flagged for a closer look

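Values of 86 named genes and of library measures were examined for a single library far from the other 7 of its group, and 14 of 178 groups held one, where chance alone gives about 1 in 20. Psilocybin replicate 7 accounted for 8 of the 14. Some of the genes examined were named because they were called only without this library, and the library was singled out for its GC slope, so its share of the 14 was partly fixed by that choice and is not to be set against the chance rate. Its GC slope of 0.54 lay above the -0.24 to -0.00482 of the other psilocybin libraries. It was low for Plpp6 at 41.9 CPM (others 65.6 to 76.4 CPM), for Coq10b at 8.52 CPM (others 27.7 to 38.7 CPM) and for the serotonin receptor gene Htr1b at 4.43 CPM (others 9.68 to 13.8 CPM). It was low as well for Glrb at 130.0 CPM (others 277 to 350 CPM), Neto2 at 35.2 CPM (others 75.5 to 101 CPM) and Abi1 at 85.8 CPM (others 139 to 153 CPM). It was high for the myelin gene Hapln2 at 19.4 CPM (others 7.60 to 11.6 CPM).

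Vehicle replicate 6, 1 of the 3 libraries high in striatal genes, stood above the other vehicle libraries for Drd2 at 21.3 CPM (others 0.823 to 1.77 CPM). It did so too for the myelin genes Cldn11 at 165 CPM (others 54.6 to 90.7 CPM), Anln at 36.7 CPM (others 9.96 to 21.1 CPM) and Mbp at 3113 CPM (others 1250.4 to 1828 CPM). Vehicle replicate 3 was low for the adenosine receptor gene Adora1 at 166 CPM (others 203 to 226 CPM). Vehicle replicate 1 was high for the activity-induced gene Npas4 at 32.3 CPM (others 8.84 to 19.7 CPM).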

How the results depend on the processing

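With all libraries edgeR called 2 genes. It called 1 with the GC and length trend removed, without the extraction pool, without a filter on low counts, within pool C, under a Bonferroni threshold and without the 3 libraries high in striatal genes, and 0 when only the PFC libraries or only the 16 libraries were fitted and within pool D. The gene called within pool C was neither Hrh1 nor Zcchc10. At an unadjusted p under 0.05 the PFC libraries alone gave 964 genes, the 16 libraries alone 590 and pool D 265. Other models called 9 (DESeq2, 4 higher and 5 lower), 1 (voom without quality weights) and 1246 (voom with quality weights). Leaving out single libraries gave between 1 and 11 calls, the most without vehicle replicate 3 (11) and psilocybin replicate 7 (9), with 4 each without psilocybin replicate 5 and without vehicle replicate 5. Starting from the 9 genes called without psilocybin replicate 7, there were 3 with the GC trend removed, 33 with DESeq2, 1539 with weighted voom, 0 within pool D and 0 without the 3 libraries high in striatal genes. Among family members, voom with weights called 40, while pools C and D alone called 0 each. The difference from the 4 week response gave 1 call with voom, also without replicate 7, and the difference from the hypothalamus gave 8 and, without replicate 7, 200. Hrh1 stayed lower in every fit run and Zcchc10 higher, and no direction of a named called gene turned. The causes of these shifts were not tested.

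With the cage number as a replicate block edgeR called 2 genes, 7 without psilocybin replicate 7 and 1 with the GC and length trend removed, and voom with weights called 144. Beyond the calls named as ended by it, the block changed no other edgeR call. Errors of 0.1 to 0.3 on the log2 scale for most receptors, which draw on all 62 libraries, limit what could be seen at 8 mice a group. Low members such as Htr1d and Htr4 rest on few reads.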
